A study of Mus musculus with 14 samples.

Results

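B16F10 melanoma tumours that received no cells and no antibody were followed over a week, on 4 of the 14 arrays of the study, chosen by the label that calls the mice untreated. Their arrays come from days 1, 3, 5 and 7, where day 0 fell 9 days after the tumour challenge. The late arrays (days 5 and 7) were compared with the early ones (days 1 and 3), and a slope was fitted over the 4 days.

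All hosts were C57BL/6 mice carrying B16F10, a transplantable melanoma line of that strain. The other 10 arrays served for comparison. CTL mice received cytotoxic T lymphocytes (CTLs) specific for the melanocyte protein gp100 on day 0 and have arrays on days 1, 3, 5 and 7. A second arm received CTLs with an antibody against interferon gamma and another CTLs with control rat IgG. The antibodies were given on days 0 and 2, and these arms have arrays on days 3, 5 and 7. Each untreated and CTL array carries pooled RNA of 4 tumours, and each antibody array RNA of 3, so the spread between single mice was not measured. The untreated mice were controls of a T cell transfer experiment, and the model is 1 tumour line at 1 site. RNA came from whole tumour, in which fewer cells of a type and less RNA per cell cannot be told apart.

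A transplanted tumour that outgrows its blood supply becomes hypoxic, and hypoxia-inducible factors then switch on glycolytic enzymes and the vessel growth factor encoded by Vegfa. Host macrophages, neutrophil-like myeloid cells, endothelial cells and fibroblasts enter such tumours, and blood in the tissue brings the RNA of red cell precursors and reticulocytes. Most of the RNA of a B16 tumour comes from the melanoma cells, which express the pigment genes of melanocytes.

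Each day was hybridised on a slide of its own. A difference between days in untreated tumours is therefore also a difference between slides, and the other arms on the same slides are the only comparison that bears on which it is. A level below is the log2 processed signal minus the 75th percentile of its array. Differences between levels are log2 differences, so levels of separate genes are not compared. The 4 untreated arrays had 53.8% to 59.7% of their spots well above background. Day 7 stood apart from the others: its 75th percentile signal was 303, against 470 to 495 on days 1, 3 and 5. The mean of 6 bright spike-in probes, RNA of known amount added to each sample, lay 6.12 above that percentile on day 7 and 5.08 to 5.30 on the other days. Across all genes the log2 difference of day 7 from the other untreated arrays had an SD of 0.63 to 0.66, against 0.49 to 0.51 among days 1, 3 and 5. Its slide mates differed among themselves. The CTL array had a 75th percentile of 301 and a spike-in level of 5.85, and the IgG array 365 and 5.82. The array of the interferon gamma block had 486 and 4.78.

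The labelled tissue matched its markers. Pmel, the gp100 gene, had levels of 8.72, 8.69, 8.35 and 8.87 on days 1, 3, 5 and 7. Dct, a melanin synthesis enzyme, had 9.34, 9.32, 9.14 and 9.72, and all 23 melanocyte genes were well above background on every untreated array. Cd8a, which marks the transferred kind of T cell, was not well above background on any of the 4. Of 19 measured T cell genes 12 were above background on some untreated array and 9 on all 4. Other host lists were present in part. All 3 endothelial markers Pecam1, Cdh5 and Kdr were above background on all 4 arrays, as were the macrophage markers Cd68, Adgre1 and Csf1r, while the neutrophil receptor gene Csf3r was above background on none.

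No gene passed an adjusted p of 0.05 in the comparison of late with early arrays (limma, Benjamini-Hochberg over 17035 genes, smallest adjusted p 0.659). An unadjusted p under 0.05 was reached by 453 genes, 2.66% of those tested, 299 of them higher (1.76%) and 154 lower (0.904%) on the late arrays. The sign of the difference was positive for 52.1% of all genes. In the slope over 4 days no gene passed either (limma, smallest adjusted p 0.369), with 963 genes (5.65%) at an unadjusted p under 0.05, 759 upward (4.46%) and 204 downward (1.2%). Both late arrays lay above both early arrays for 2664 genes (15.6%) and below them for 2795 (16.4%). A difference of over 1 log2 between consecutive arrays, among genes above background on either, was seen from day 1 to day 3 for 1.92% of genes upward and 1.32% downward. From day 3 to day 5 it was 1.48% and 1.98%, and from day 5 to day 7 8.77% and 1.32%. A rank permutation of 2 arrays against 2 could give no two-sided p under 0.333. All the differences below are therefore values of these 4 arrays, and none passed the adjusted test.

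The red cell genes formed the clearest group. Hba-a1, an alpha globin gene, had levels of 5.88 on day 1, 5.11 on day 3, 7.29 on day 5 and 8.66 on day 7. Both late arrays lay above both early ones, 5.59-fold on average (log2 difference 2.48 ± 0.58 SE, 2 arrays a side, limma adjusted p = 0.986). Hbb-bt, a beta globin gene, went through 6.73, 6.13, 8.18 and 9.39, and Hba-a2 through 5.79, 5.02, 7.21 and 8.51. The alpha globin genes are near-identical copies, as are the adult beta globins, so each probe may report its whole family.

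Alas2, the erythroid enzyme that starts haem synthesis, shares no sequence family with the globins and had the same order of days. Its levels were 1.00, 0.17, 2.63 and 4.38, a 7.57-fold difference of late over early (log2 2.92 ± 0.71 SE, limma adjusted p = 0.986). Slc4a1, the anion exchanger of the red cell membrane, had levels of -3.31, -3.46, -0.56 and -0.0036, an 8.58-fold difference (log2 3.1 ± 0.24 SE, limma adjusted p = 0.659). The low pair and the high pair were well separated in each of these genes, and day 3 was the lowest of the 4 arrays.

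Of 9 listed erythroid genes, 4 passed the filter on dim probes (Hba-a1, Hbb-bt, Alas2, Slc4a1), and those 4 were above background on all untreated arrays. All 4 were higher on both late arrays and had an unadjusted p under 0.05, where 1.76% of all genes were higher at that p. Their median difference was 2.70, against 0.01 over all genes. Without day 7 they were higher on day 5 than on both early arrays in 4 of 4 cases, by a median of 1.92, while 32.7% of all genes lay above both early arrays on day 5. The probe that the array names Eraf, an erythroid associated factor that binds alpha globin, was picked after its values were seen. It was not well above background on days 1 and 3 (-6.34 and -6.67) and was on days 5 and 7 (-2.76 and -2.77), an at least 2.85-fold difference. In the block arm it reached -0.77 on day 7. Here and below, "at least" sets the bright side against the lowest signal well above background on each dim array. Car2, a carbonic anhydrase of red cells among other tissues and also picked afterwards, had -3.76, -4.07, -1.68 and -1.84.

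**Figure D1:**
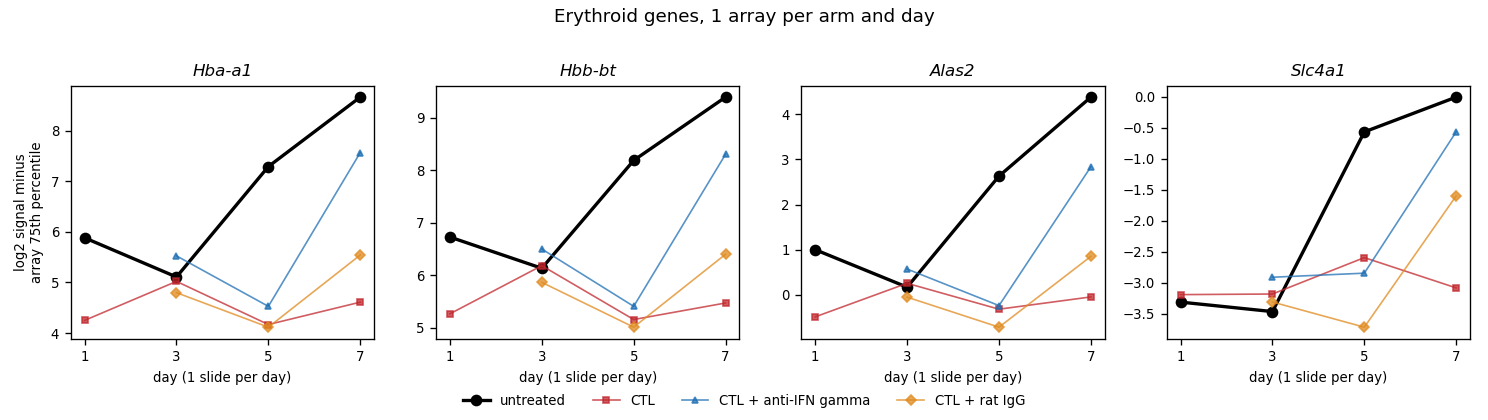
Levels (log2 signal minus the array's 75th percentile) of Hba-a1, Hbb-bt, Alas2 and Slc4a1 against day, with 1 point per array and no error bars because no arm and day was repeated. The black untreated line lies low on days 1 and 3 and high on days 5 and 7, while on day 5 the 3 CTL arms lie below it in every panel.

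The other arms on the same slides did not share the day 5 values. On day 5 Hba-a1 stood at 7.29 in untreated tumours and at 4.17 with CTLs, 4.53 with the block and 4.12 with IgG. On day 7 the block array reached 7.57, the IgG array 5.54 and the CTL array 4.61, against 8.66 untreated. From day 3 to day 5 all 4 measured erythroid genes were higher in untreated tumours, and 1, 1 and 0 of 4 were higher with CTLs, the block and IgG. From day 5 to day 7 they were higher in 4, 3, 4 and 4 of 4 in the untreated, CTL, block and IgG arms. The late minus early difference of Hba-a1 in untreated tumours exceeded that of the other 3 arms by 2.90 ± 0.80 SE (limma, 12 arrays of days 3, 5 and 7, adjusted p = 0.998), and that of Alas2 by 3.20 ± 0.84 SE (limma, adjusted p = 0.934).

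The array's probe positions are given in mouse build mm8. The Hba-a1 probe lies at chr11:32183775-32183956, Hba-a2 at chr11:32196744-32196803, Hbb-bt at chr7:103687307-103687366, Alas2 at chrX:145911166-145911225 and Slc4a1 at chr11:102165032-102165091. They are shown with their regulatory sequence because erythroid genes are textbook targets of GATA1, which binds GATA motifs, and of the CACCC-binding factor KLF1. The 250 bases upstream of the RefSeq start (GRCm38.p6) are printed for an alpha globin gene and for Alas2, in lower case with the motifs searched on both strands in capitals: AGATAA and the variant TGATAA for GATA1, with CCACCC for KLF1.
Hba-a1 (chr11:32283422-32283671, plus strand): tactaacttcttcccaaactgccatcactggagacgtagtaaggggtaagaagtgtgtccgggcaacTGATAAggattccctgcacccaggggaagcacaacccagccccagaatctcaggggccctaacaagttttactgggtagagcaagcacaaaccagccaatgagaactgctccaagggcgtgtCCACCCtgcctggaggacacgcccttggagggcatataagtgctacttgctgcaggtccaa
Alas2 (chrX:150547167-150547416, plus strand): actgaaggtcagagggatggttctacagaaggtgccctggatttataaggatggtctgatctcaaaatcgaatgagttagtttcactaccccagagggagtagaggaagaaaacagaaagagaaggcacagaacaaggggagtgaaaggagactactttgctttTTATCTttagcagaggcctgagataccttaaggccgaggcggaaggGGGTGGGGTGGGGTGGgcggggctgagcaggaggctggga
In Hba-a1 the plus strand has TGATAA starting 183 bases before the gene's start and CCACCC at 61 bases. In Alas2 the minus strand holds AGATAA at 86 bases and 3 overlapping copies of CCACCC at 40, 35 and 30 bases. Of the 4 measured erythroid genes 3 had a promoter entry: CCACCC is in 3 of them, AGATAA in 1 and TGATAA in 1, and the window of Hbb-bt, not printed, has neither GATA motif. Slc4a1 is named only. The printed promoters are the ones with a match to a GATA motif. Over the table's 27025 genes, 11.4% have AGATAA, 9.21% TGATAA and 30.6% CCACCC in such a window on either strand. A match is only a run of letters and does not show a bound site.

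Myeloid genes divided into 2 directions. S100a9, a calcium-binding protein of neutrophils and immature myeloid cells, had levels of -2.26, -2.42, -0.17 and -0.44 on days 1, 3, 5 and 7. Late arrays were 4.10-fold above early ones (log2 2.04 ± 0.17 SE, limma adjusted p = 0.659). Its partner S100a8 was above background on 1 array in all, with -5.36, -6.33, -4.12 and -4.32. Arg1, the arginine-degrading enzyme of suppressive myeloid cells, had -3.25, -2.82, -1.37 and -2.07, a 2.48-fold difference (log2 1.31 ± 0.32 SE). Stat3, which carries interleukin 6 and interleukin 10 signals and in whole tumour RNA cannot be assigned to myeloid cells, had 3.47, 3.34, 3.89 and 4.41. In each of these both late arrays lay above both early ones.

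The wider lists were thin. Of 16 listed genes of suppressive myeloid cells 10 were measured: 5 had both late arrays above both early ones, against 15.6% of all genes, and 1 had them below. Of 17 listed neutrophil genes 8 were measured. Both late arrays were higher for 3 of the 8 (S100a8, S100a9 and Mmp8), against 15.6% of all genes. Only S100a9 was above background on all 4 arrays. Neutrophil genes Csf3r, Mmp8, Fpr1, Fpr2 and Trem1 were above background on no untreated array. Cd24a, a surface protein of granulocytes, red cell precursors and many tumour cells, had -3.97, -4.64, -2.05 and -1.32, a difference of 2.62 ± 0.38 SE. From day 3 to day 5 the slide mates differed for S100a9. Its level went from -2.42 to -0.17 untreated, from 0.08 to 2.57 with CTLs and from 0.08 to 0.94 with IgG. With the block it went from -0.97 to -2.47. Over that step 7 of 10 measured suppressive myeloid genes were higher in untreated tumours (45.9% of all genes). With CTLs, the block and IgG 7, 1 and 6 of 10 were.

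Macrophage genes lay the other way. Csf1r, the receptor for the macrophage growth factor CSF1, had levels of -0.50, -1.69, -1.98 and -2.39. Each day was lower than the day before, with a slope of -0.30 ± 0.06 SE a day (limma adjusted p = 0.791). Ctss, a lysosomal protease of antigen-presenting cells, had 2.60, 1.82, 1.47 and 1.15, a slope of -0.23 ± 0.04 SE a day (limma adjusted p = 0.787). Adgre1, which encodes the F4/80 surface protein, had -0.58, -0.82, -1.21 and -1.30. The complement genes of macrophages had the same order, with C1qa at 0.34, 0.04, -0.24 and -0.73 and C1qc at 1.06, 0.79, 0.52 and 0.27.

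In the macrophage list 24 of 25 genes were measured, and 10 had both late arrays below both early ones (41.7% of the list, 16.4% of all genes). Their names are Cd68, Adgre1, Csf1r, Fcgr1, C1qa, C1qb, C1qc, Lyz1, Lyz2 and Ctss. Going down at every step was seen in 8 of the 24, against 4.06% of all genes. The list's median difference was -0.26. Of the 24, 17 had a negative difference and 7 a positive one, and 1 had both late arrays above both early ones. This was Marco, a scavenger receptor, which had -1.27, -1.09, -0.10 and -0.39, a 1.91-fold difference (log2 0.94 ± 0.17 SE). Itgax, an integrin of dendritic cells and some macrophages, had -2.77, -3.56, -3.64 and -3.96. The day 5 slide gave another picture in the other arms: from day 3 to day 5, 19 of 24 macrophage genes were higher with CTLs, 16 with the block and 21 with IgG, against 10 in untreated tumours. From day 5 to day 7 few members were higher in any arm, 5, 2, 5 and 8 of 24 with CTLs, the block, IgG and untreated. With day 3 as the only early array, the untreated value differed from that of the other arms by a median of -0.21. This median is over the macrophage list, and against the block alone it was 0.02. Adgre1 was among the members farthest below the other arms (-1.16 ± 0.35 SE, limma adjusted p = 0.998).

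**Figure D2:**
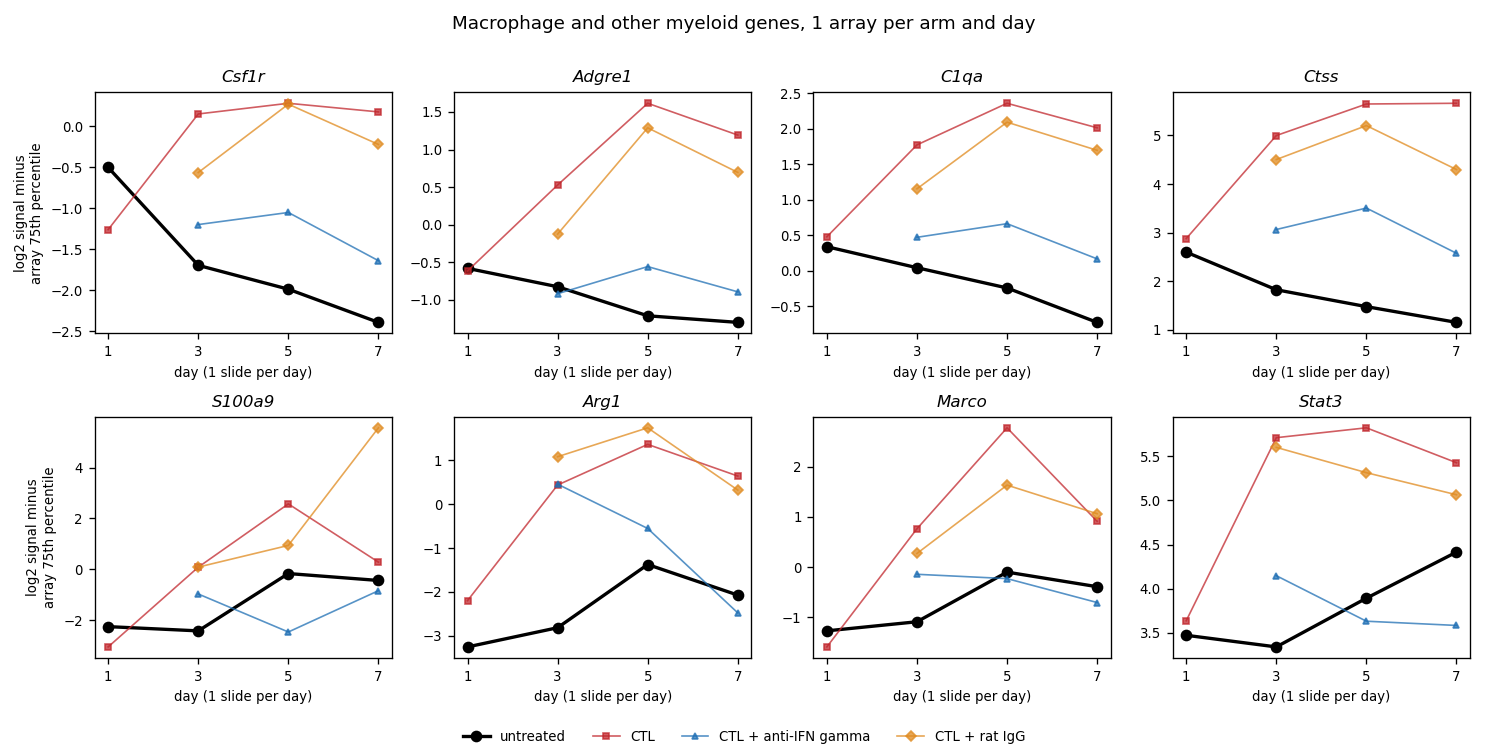
Levels (log2 signal minus the array's 75th percentile) of myeloid genes and of Stat3 against day, 1 array per point. In the top row the untreated line declines over the days from Csf1r at -0.50 to -2.39 and from Ctss at 2.60 to 1.15, while S100a9, Arg1, Marco and Stat3 in the bottom row are higher on days 5 and 7 than on days 1 and 3.

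Hypoxia genes were lowest on day 1. Vegfa had levels of 0.91, 1.84, 2.29 and 2.21. The day 1 array stood lowest and the other 3 lay within 0.45 of each other, with a late minus early difference of 0.88 ± 0.36 SE (limma adjusted p = 0.986). Car9, a carbonic anhydrase induced by low oxygen, had 2.30, 2.71, 3.11 and 2.89. Hk2, the hexokinase that opens glycolysis, had 4.97, 5.33, 5.49 and 5.83, and Slc2a1, the glucose transporter GLUT1, had 3.50, 4.08, 4.21 and 4.08.

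All 34 measured members of the hypoxia and glycolysis list (of 35) were higher on day 3 than on day 1 in untreated tumours, by a median of 0.27, while 51.8% of all genes were higher. The CTL arrays of the same 2 slides showed 22 of 34 higher, by a median of 0.23, and Vegfa was 0.77 and 1.88 there. From day 3 to day 5 the arms differed in count: 24 of 34 were higher in untreated tumours, and 10, 6 and 14 of 34 with CTLs, the block and IgG. From day 5 to day 7 it was 10 of 34 in untreated tumours and 27, 23 and 14 in those arms. Over the whole week 10 members had both late arrays above both early ones (29.4% of the list, 15.6% of all genes) and none below. With spike-in centring the list's median of 0.15 became -0.29, on which scale the median of all genes was -0.43, and Slc2a1 and Pfkp changed sign. Against the other arms day 3 was the only early array. On that basis the list's median difference was 0.02 in untreated tumours and -0.08, -0.14 and -0.10 with CTLs, the block and IgG. The untreated value exceeded that of the other arms by a list median of 0.12. At an unadjusted p under 0.05 (limma) 3 of 34 genes were higher (1.94% of all genes). The excess was 0.94 ± 0.33 SE for Vegfa (limma adjusted p = 0.998) and 0.05 ± 0.25 SE for Car9. Against the block alone the median was 0.21, with 0 of 34 genes higher at that p (2.69% of all genes).

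The hypoxia-inducible factors bind ACGTG and GCGTG, and Car9 has long served as a marker of their activity. Its 250 bases upstream of the RefSeq start (GRCm38.p6) are shown with both motifs, on either strand, in capitals.
Car9 (chr4:43506776-43507025, plus strand): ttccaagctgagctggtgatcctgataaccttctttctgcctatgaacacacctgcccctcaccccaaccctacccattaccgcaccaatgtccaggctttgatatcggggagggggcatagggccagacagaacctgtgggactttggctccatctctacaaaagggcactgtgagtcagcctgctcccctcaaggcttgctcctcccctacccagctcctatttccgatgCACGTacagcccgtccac
ACGTG lies on the minus strand 18 bases before the start. Of the 34 measured list members 32 had a promoter entry, and 20 of them hold ACGTG (62.5%) and 21 GCGTG (65.6%), against 18.5% and 30.9% of all genes with an entry. Both motifs contain CG, and base composition was not matched. The list was picked as genes of hypoxia and glycolysis, so its motif tally is no measure of factor activity in these tumours.

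Most interferon gamma-induced and MHC class II genes alternated from array to array. Igtp and Tgtp1, interferon-inducible GTPases, are typical, the former at 2.10, 0.60, 2.04 and 0.65. Tgtp1 had 1.39, -0.19, 1.90 and -0.41. In both genes days 1 and 5 were high and days 3 and 7 low, so their late and early means were close. The late minus early median was 0.02 over the interferon gamma list. Of the 26 interferon gamma-induced genes, 3 were higher on day 3 than on day 1, 21 were higher on day 5 than on day 3 and 4 were higher on day 7 than on day 5. On the same slides 0 of 26 were higher on day 5 than on day 3 with CTLs or IgG, and 2 with the block. From day 1 to day 3 all 26 had been higher with CTLs, by a median of 4.75. Cxcl9, a T cell attractant, had -1.73, -3.71, -2.35 and -3.37, and Ifng itself was above background on 1 of the 4 arrays.

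The MHC class II genes present antigen to CD4 T cells. None of the 9 measured was higher on day 3 than on day 1, all 9 were higher on day 5 and none was higher on day 7 than on day 5. The list also ended lower, with a late minus early median of -0.33 and a median change of -1.11 from day 1 to day 7. A downward slope at an unadjusted p under 0.05 (limma) was seen in 3 of 9 genes (1.2% of all genes). H2-Ab1 had 1.45, 0.62, 0.77 and -0.24. The last step was common to all arms: from day 5 to day 7, 0, 0, 1 and 0 of 9 were higher with CTLs, IgG, the block and untreated. Over days 3, 5 and 7 the untreated late minus early difference exceeded that of the other arms by a list median of 1.10. At an unadjusted p under 0.05 (limma) 5 of 9 genes were higher (1.94% of all genes). H2-Ab1 was not among these 5, at 0.05 ± 0.17 SE (limma adjusted p = 0.998). The list's median late minus day 3 value was -0.0017 in untreated tumours, and -0.52, -0.33 and -0.46 with CTLs, the block and IgG. Day 3 was itself a high level in the CTL arm, where the list's median step from day 1 to day 3 was 4.49. Against the block alone the median excess was 0.44, with 0 of 9 genes higher at that p (2.69% of all genes). Of 23 type I interferon genes, 16 lay on day 5 below both early arrays (41.0% of all genes) and 1 above (32.7%). Their steps differed from those of the interferon gamma list: 5, 6 and 18 of 23 were higher from day 1 to 3, day 3 to 5 and day 5 to 7. The slide mates were also low on day 5, with 1, 3 and 1 of 23 higher than on day 3 with CTLs, the block and IgG. Oasl1, an antiviral gene, had -1.88, -1.63, -3.12 and -2.55.

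Immediate early genes are switched on within minutes of growth signals or stress. Fos, an early response transcription factor, had -1.45, -1.13, -0.65 and -0.38, a difference of 0.77 ± 0.19 SE (limma adjusted p = 0.986). Jun, its partner in AP-1, had -0.81, -0.63, -0.28 and 0.06. In the immediate early and heat shock list 11 of 20 measured genes had both late arrays above both early ones (15.6% of all genes) and 2 below. The median difference was 0.23, and with spike-in centring -0.21 beside a median of -0.43 for all genes. From day 3 to day 5, 14 of 20 were higher in untreated tumours and 8, 1 and 9 of 20 with CTLs, the block and IgG.

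In the TGF-beta and mesenchymal list the smallest slope p was that of Ccn1. Ccn1, a matricellular protein, had 0.22, 0.62, 1.15 and 1.76, with a slope of 0.26 ± 0.03 SE a day (limma adjusted p = 0.596). Ccn2, of the same protein family, had 0.83, 0.88, 1.23 and 1.64. Both were higher at every step, which 8 of the 22 measured members and 5.57% of all genes were. Of the 22, 10 had both late arrays higher (15.6% of all genes) and 3 lower (16.4%), and the ligand and receptor genes Tgfb1, Tgfbr1 and Tgfbr2 were the 3 lower ones. With day 3 as the only early array, the late minus early value of Ccn1 in the other arms was -0.94. The untreated value lay 1.78 ± 0.46 SE above it (limma, adjusted p = 0.896). In the CTL arm Ccn1 had gone from -0.08 on day 1 to 1.67 on day 3.

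**Figure D3:**
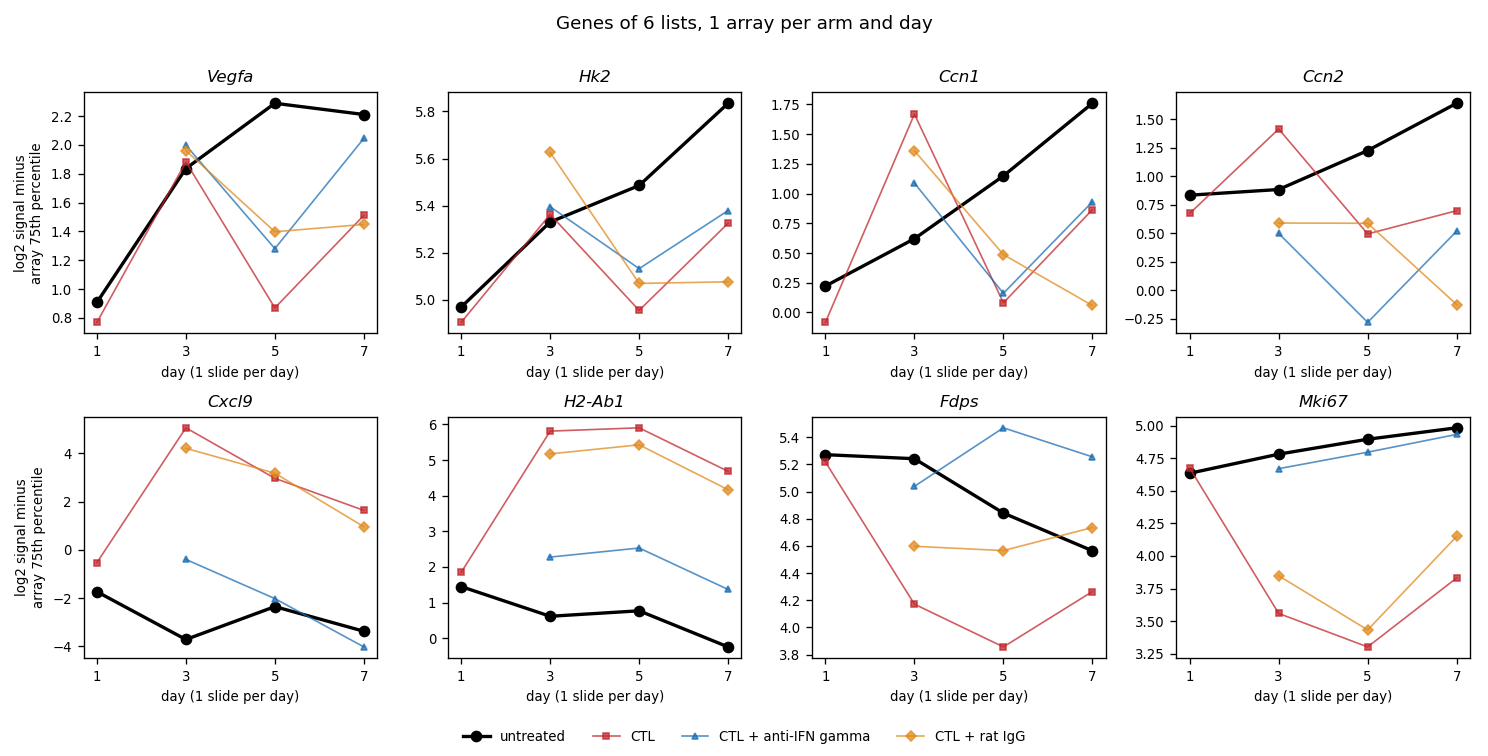
Levels (log2 signal minus the array's 75th percentile) of 8 genes from hypoxia, TGF-beta, interferon, MHC class II, cholesterol and cell division lists against day, 1 array per point. Untreated Ccn1 and Ccn2 are higher at each step (0.22 to 1.76 and 0.83 to 1.64), Cxcl9 alternates, and Fdps is lower on days 5 and 7 than on days 1 and 3.

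Many sterol synthesis and respiratory chain genes were lower on the late arrays. Fdps, which makes the farnesyl unit of cholesterol, had 5.27, 5.24, 4.84 and 4.56 (log2 difference -0.55 ± 0.16 SE, limma adjusted p = 0.986). Nsdhl, a later step of the pathway, had 0.60, 0.71, 0.12 and -0.02, and Cyp51 1.46, 1.42, 1.09 and 0.94. In the cholesterol synthesis list 10 of 20 genes had both late arrays below both early ones (16.4% of all genes) and 1, Stard4, had them above. On day 5 alone 18 of 20 members lay below both early arrays, against 41.0% of all genes. The day 3 to day 5 step had 2 of 20 higher in untreated tumours, 6 with CTLs, 6 with IgG and 12 with the block.

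Mitochondrial respiratory chain genes had 11 of 25 with both late arrays lower (16.4% of all genes) and none higher (15.6% of all genes), with a median of -0.12. Sdhb, a subunit of complex II, had 5.30, 5.36, 5.16 and 4.59. The stress and unfolded protein response list had its low point on day 5. On that array 21 of 22 genes lay below both early arrays (41.0% of all genes). None of the 22 was higher than on day 3 (45.9% of all genes). There the slide mates were partly alike, with 1 of 22 higher on day 5 with CTLs, 3 with IgG and 10 with the block. Asns, the asparagine synthetase, had 5.83, 6.25, 5.64 and 5.66 and Phgdh, which opens serine synthesis, 6.20, 6.33, 5.94 and 5.99. On day 7, 18 of 22 were above their day 5 level.

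Most cell division genes were higher on day 5 than on day 3 and lower again on day 7. Mki67, a proliferation marker, had 4.64, 4.78, 4.90 and 4.98, higher at each step, a difference of 0.23 ± 0.13 SE that became -0.21 with spike-in centring. Of 36 genes of the G2 and M phases, 34 were higher on day 5 than on day 3 and 4 were higher on day 7 than on day 5. Of 36 genes of G1 and S, 34 and 2 were. The block arm had 35 and 32 of 36 higher on day 5, and on day 7 26 and 29, where untreated tumours had 4 and 2. With CTLs 18 and 31 of 36 were higher on day 5 and 35 and 34 on day 7, and with IgG 7 and 24 on day 5 and 36 and 36 on day 7. Median steps were small, 0.18 for G2 and M to day 5 and -0.25 to day 7. Melanocyte genes were lower on day 5 than on both early days in 16 of 23 cases (41.0% of all genes). From day 3 to day 5, 5 of 23 were higher in untreated tumours and 19, 9 and 16 with CTLs, the block and IgG. In untreated tumours the list had a late minus early median of -0.10. Gpr143, a pigment cell receptor, had 0.63, 0.65, 0.15 and 0.05.

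Stromal genes were higher on day 7 than on day 5 in untreated tumours. This held for 18 of 20 endothelial genes (median step 0.58), 12 of 14 fibroblast genes (0.57) and 16 of 17 collagen genes (0.57), against 57.8% of all genes. Pecam1, an endothelial adhesion protein, had -3.18, -3.39, -3.77 and -2.77. Col1a1, the chain of fibrillar collagen, had 0.39, 0.13, 0.20 and 1.15. Endothelial genes were higher in 8, 9 and 9 of 20 with CTLs, the block and IgG on the same slide, while 16 of 17 collagen genes were also higher with the block. On day 5 the endothelial, fibroblast and collagen lists had median levels of -1.25, -1.03 and -0.70, against -0.23 over all genes. The day 7 array had a brightness pattern, given next, and its part in these lists was not tested.

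**Figure D4:**
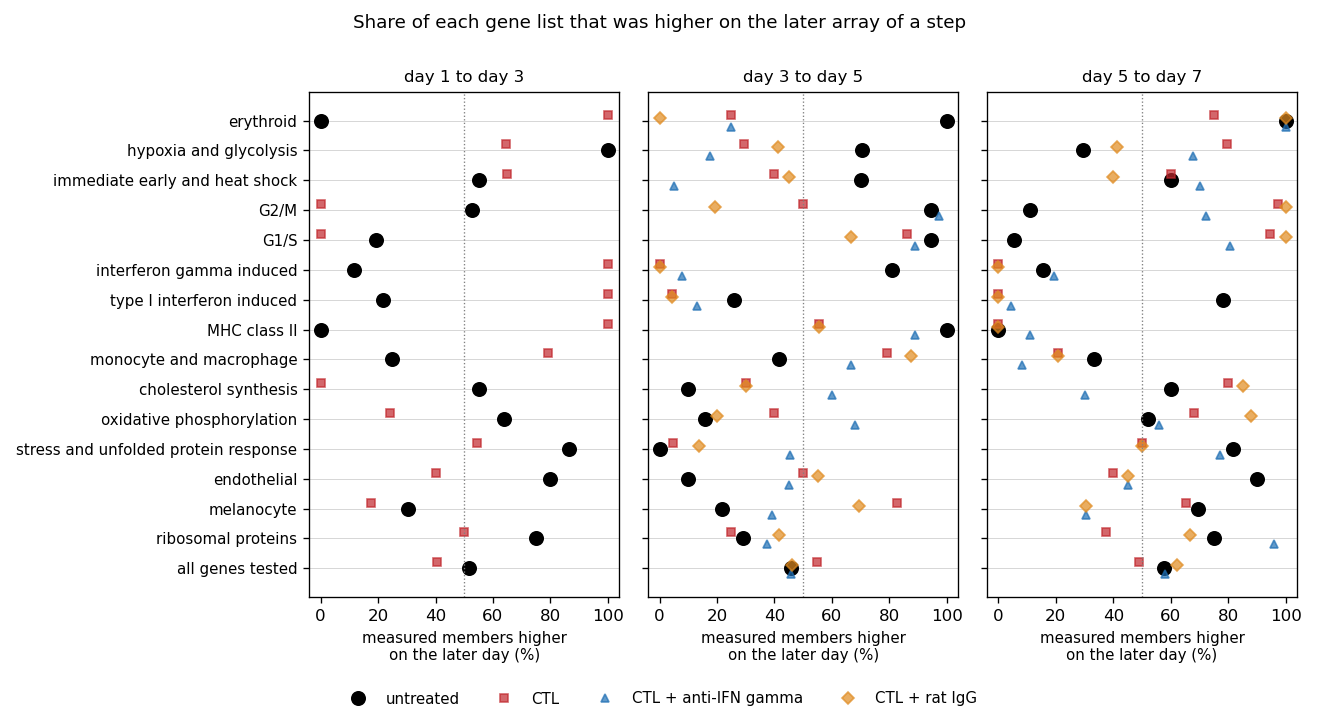
Percent of the measured members of each gene list that were higher on the later array of a step, for each arm (symbols), with day 1 to 3, day 3 to 5 and day 5 to 7 in separate panels. Untreated tumours had all 4 erythroid genes higher on day 5 where the other arms had 0 or 1, and no MHC class II gene higher on day 7, where the block had 1.

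The day 5 to day 7 step depended on brightness. Among the 4259 dimmest genes, by mean over 14 arrays, the median step was 0.57 and 28.1% were more than 1 higher. Among the brightest 4259 genes the median step was -0.03 and 0.40% were more than 1 higher. The day 3 to day 5 step of the dimmest genes was -0.11, with 5.78% more than 1 higher. Olfactory, vomeronasal and taste receptor and hair keratin-associated genes, grouped after the values were seen, had array medians of -3.86, -3.56, -3.96 and -3.04 on days 1, 3, 5 and 7 over 222 genes. On day 7, 205 of the 222 were above their day 5 level.

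**Figure D5:**
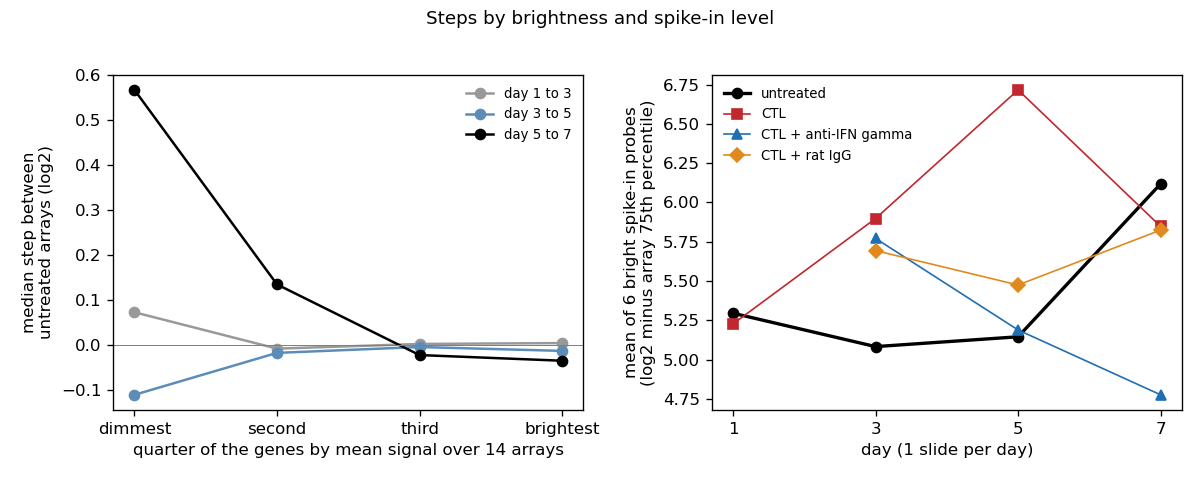
Left, median step between consecutive untreated arrays (log2) for genes grouped by mean signal, where the day 5 to 7 line is at 0.57 for the dimmest group and -0.03 for the brightest. Right, mean level of 6 bright spike-in probes (log2 minus the array's 75th percentile) for each array, where untreated day 7 is at 6.12 and the other untreated arrays are between 5.08 and 5.30.

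The genes with the widest differences were mostly dim. Of the 15 highest late minus early differences 4 were of genes above background on all 4 untreated arrays: Slc4a1, Alas2, Hba-a1 and Hba-a2. Olfr686, an olfactory receptor gene, had -6.31, -5.95, -2.55 and -0.94, an at least 5.77-fold difference. Tmem52b, a membrane protein gene, was at least 7.02-fold higher, Ctsw, a protease of cytotoxic lymphocytes, at least 3.44-fold and Pcsk5, a proprotein convertase, at least 1.83-fold. Dppa3, a germ cell gene, was high on day 5 only (-6.28, -4.18, 0.06 and -3.78).

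Of the 15 lowest differences 2 were of genes above background on all 4 arrays, Shroom3 and Trim30a. Sftpa1, a surfactant protein gene of lung, had -1.65, -2.88, -6.75 and -6.62, at least 4.35-fold lower late. Psmb11, the thymic proteasome subunit, was at least 2.31-fold lower and Mmrn1, a platelet and endothelial protein, at least 1.63-fold lower. Gpx7, an endoplasmic reticulum peroxidase, had -1.89, -2.77, -5.64 and -4.08 and was below background on 1 late array. Among downward slopes at every step the 8 steepest held Csf1r, Ctss, Itgax and C1qa of the myeloid lists, beside Vdr, Shpk, Aldh1a7 and Katnal1.

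Whether differences over the week were shared by all arms was asked over days 3, 5 and 7. In the other 3 arms no gene passed (limma, 9 arrays, smallest adjusted p 0.0721), and 2187 genes (12.8%) had an unadjusted p under 0.05, 7.06% of all genes upward and 5.78% downward. Of the 299 genes higher late in untreated tumours at an unadjusted p under 0.05, 66 (22.1%) were higher in all 3 other arms, against 22.6% of all genes with a positive difference. Of the 154 lower ones 39 (25.3%) were lower in all 3, against 17.9% of all genes with a negative difference. No gene passed in the untreated minus other arms comparison (limma, smallest adjusted p 0.21, 595 genes or 3.49% at an unadjusted p under 0.05, 1.94% higher and 1.55% lower) or in untreated minus the block (limma, smallest adjusted p 0.531, 634 genes or 3.72%, 2.69% higher and 1.03% lower). Both later untreated arrays lay above day 3 and all later arrays of the other arms below theirs for 1.28% of genes, and the reverse held for 1.6%.

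The block arm was the nearest to untreated tumours on each slide, with an SD of log2 differences of 0.57 to 0.62 where CTL and IgG arrays had 0.78 to 1.07. In the comparison with it, Il1b, an inflammatory cytokine, had levels of -4.57, -3.34 and -3.35 in untreated tumours on days 3, 5 and 7 and -1.57, -4.0 and -3.94 with the block. Several of the smallest p-values came from single values of the block's day 3 array: Nme1, a nucleotide kinase, was at 2.00 there, at 4.94 and 4.97 on its later arrays and between 4.74 and 5.08 in untreated tumours. Ndufs1 (2.94 against 5.35 and 5.24), Parl (-2.26 against 1.07 and 1.24) and Lipt1 (-5.78 against -2.81 and -2.77) were likewise low on that array alone, and Tspan8 was high on it (-0.47 against -4.49 and -4.13). The untreated levels of Lipt1 lay between -2.89 and -2.54, and those of Tspan8 between -3.96 and -3.80.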

How the data were processed

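Pooled tumour RNA was measured on Agilent one-colour arrays. Per the submitters' processing notes, Agilent Feature Extraction 9.5 read the images. In the authors' scanner files each spot has an intensity, linear in scale, from which background had already been taken per the file headers. A value table, also the authors' own, holds log2 numbers that match the log2 processed signal used here up to a constant on each array (r = 1).

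From the scanner files, log2 of the processed signal minus the array's 75th percentile was taken. Outlier spots were left out, and spots of a probe were averaged. Probes well above background on at least 3 of 14 arrays were kept, with the probe of highest mean for each gene, which gave 17035 genes. Of 41174 probes, 24367 were named by accession through RefSeq. Number of arrays, not depth, limits the precision here.

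Every fit used limma 3.58.1 under R 4.3.3, with lmFit and eBayes, and p-values were adjusted over all genes by Benjamini-Hochberg, with a threshold of 0.05. The p-values measure only the spread between these pooled arrays, part of which may be technical. The untreated fits used 4 arrays, with 2 residual degrees of freedom. The other arms (9 arrays, arm as a term) and the interactions (12 or 6 arrays, arm and day as terms) used days 3, 5 and 7, so day, which is also slide, is a block there. The fits were tested on simulated data. The 40 gene lists and the samples were chosen with earlier results of these data known. Genes were named by rule: the 15 highest and 15 lowest differences among genes not overlapping and above background on both arrays of a side, the 8 steepest slopes each way with 1 direction at every step, the 5 smallest p each way against the block, the 2 to 4 members of smallest p of each list, and 20 genes for their biology, of which Adipoq did not pass the filter. Other list members, Car2 and Eraf were chosen after their values were seen. Alternatives were another background correction and normalization, 2 other centrings, the authors' table, 2 other filters, all probes of a gene, an intensity trend, other sets of arrays and leaving out each array. A few list members enter the counts but are not reported here by name.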

Additional observations from a re-analysis of the deposited data

Results flagged for a closer look

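For 10 of the named genes the untreated arrays of days 5 and 7 both lay on one side of day 3 while both such arrays of the other 3 arms lay on the opposite side. Over all genes this was seen for 1.28% with untreated tumours up and 1.6% with untreated tumours down. This pattern is no test of the difference between arms. In the limma comparison of untreated with the other arms none of the 10 passed, the lowest adjusted p being 0.237 for Cxcl9. Values are the mean of days 5 and 7 minus day 3, first for untreated tumours and then for the CTL, block and IgG arms.

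Cxcl9 had 0.85 untreated and -2.75, -2.62 and -2.14 in the other arms. Cd274, which encodes the checkpoint ligand PD-L1, had 0.49 against -1.47, -0.32 and -1.38. Tapbp, a peptide loading factor, had 0.046 against -1.54, -0.64 and -1.36. Ccn1 had 0.83 against -1.20, -0.54 and -1.09. In the CTL arm the day 3 level was itself above day 1 for these genes. It went from -0.53 to 5.05 for Cxcl9, from -0.43 to 3.52 for Cd274 and from -0.08 to 1.67 for Ccn1. Fn1, fibronectin, had 0.19 against -0.52, -0.68 and -0.37. The glycolytic genes Hk2 and Pfkp had 0.33 and 0.22, with Hk2 at -0.22, -0.14 and -0.55 and Pfkp at -0.58, -0.32 and -0.43 in the other arms.

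In the other direction Adgre1 had -0.43 untreated and 0.88, 0.19 and 1.12 elsewhere. Aplnr, the apelin receptor of endothelial cells, had -0.36 against 1.03, 0.20 and 1.36. Shpk, a sedoheptulose kinase, had -0.51 against 0.35, 0.21 and 0.31. Groups of 1 or 2 arrays were too small to look for single outlying samples.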

How the results depend on the processing

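The count of genes passing an adjusted p of 0.05 (limma) for late minus early in untreated tumours stayed at 0 under the alternatives tried, with leaving out each array in turn giving 0 to 0, except for 1 gene with all 14 arrays and a pooled spread, and for spike-in centring. The latter, added after the data were seen, gave 92 genes (37 higher, 55 lower), and 132 for the trend over 4 days in untreated tumours. On that scale the median of all genes was -0.43, and with median centring -0.12. The slope count was otherwise 0. The other arms gave 1 gene each with normexp and quantile normalization, with median centring and with the filter on 2 of 4 untreated arrays, and 0 to 4 when day 7 or day 5 was left out. Untreated minus other arms gave 3 with normexp and quantile, 7 with no filter and 6 with an intensity trend. The comparison of late minus early, untreated minus interferon gamma block, gave 233 with median centring and 53 with an intensity trend, and leaving out a day there left no residual degrees of freedom and was not run. The cause of these was not tested. Of 59 genes followed in the late minus early fit, 53 kept their direction in all alternatives. With spike-in centring Slc2a1 was at -0.092, Pfkp -0.097, Junb -0.072 and Mki67 -0.21. Cxcl9 ranged from -1.13 without day 3 to 0.85 without day 1, which is also day 3 as the only early array, with 0.37 without day 7, and Oas3 at 0.30 with the mean of its probes. Without day 5 the unadjusted count rose from 453 to 3582, and without day 7 to 1142. No paired analysis was possible because each untreated array is alone on its day, and a replicate number is only a name.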
